A study of Mus musculus with 15 samples.

Results

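Rtn4, Laptm4a, AY036118, Smarca4, Bcam, Tmem14c, Pcbp4 and Cpxm2 are 8 genes whose transcripts read far apart in 2 sets of wild-type ventral skin from mouse embryos. They were chosen by their measured levels in those 2 sets, so the difference between the sets is given below as a description, with no test. Each was found through the gene symbol or the Entrez gene ID that the authors' lists attach to a probe set, the group of short probes that reads a transcript. Each had 1 such probe set, 8 of the 22690 in the deposited value table. Only the 2371 probe sets on those lists with 1 gene name, from 2065 genes, could be named, so other probe sets of these 8 genes may stand unnamed in the table. Bcam appears on the lists under the older symbol Lu and was matched through its Entrez gene ID.

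RNA from CD-1 embryos of embryonic day 15 was read on 15 Affymetrix MOE430A arrays, in 5 groups of 3. The groups were wild-type (WT) mammary buds, mammary buds of PTHrP-/- embryos, WT ventral skin, ventral skin labelled K14WT, and ventral skin of K14-PTHrP transgenic embryos. The labels describe K14WT skin as wild-type too, and set it aside as the comparison for K14-PTHrP skin. PTHrP, parathyroid hormone-related protein, is a secreted factor of bud epithelium that acts on the neighbouring mesenchyme. In K14-PTHrP embryos the keratin 14 promoter drives it in the basal epidermis, as background knowledge of this transgene. Tissue of 1 genotype was pooled before RNA isolation, with about 120 buds giving some 20 ug of RNA. Whether the replicates of a group are separate pools is not in the labels, so errors and p-values reflect only the spread between arrays, which may be technical. In pooled tissue, fewer cells of a type and less RNA per cell cannot be told apart.

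The 8 genes belong to no single pathway. Rtn4 encodes Nogo, a reticulon that bends the membrane of endoplasmic reticulum tubules, and Laptm4a encodes a membrane protein of endosomes and lysosomes. Bcam is the Lutheran glycoprotein, a receptor for laminin on the basal surface of epithelia. Smarca4 is BRG1, an ATPase that powers the SWI/SNF chromatin remodelling complexes. Tmem14c is a mitochondrial membrane protein needed for heme synthesis in developing red cells. Pcbp4 binds poly(C) stretches in RNA, and Cpxm2 is a secreted member of the M14 carboxypeptidase family. AY036118 is annotated as a long non-coding RNA in RefSeq.

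Values are GC-RMA levels on a log2 scale, on which a difference of 1 is a 2-fold difference, and the median of an array lay between 3.86 and 4.04. Probe sets that exceeded the median of their array on 3 or more of the 15 arrays were kept. All 8 members were kept, among 11692 probe sets in all. In 122 rows of the value table the 3 WT skin values lay more than 1 log2 unit above (61 rows) or below (61 rows) all 12 other arrays and were not matched by a WT skin signal on the authors' lists. Within these rows the median difference between the WT skin mean and the mean of the other arrays was 4.23 log2 units, and it was 0.0445 when both sides were sorted by size, so both sides hold nearly the same values in a different order of rows. The table also departs from the WT skin signals in the authors' deposited table for 3 of 553 entries, which are Lman1 (383 listed, 4.51 in the table), Sh3bgrl (378 and 12.7) and Ssr3 (1311 and 947), named here after their values were seen. No member is among these rows. Rtn4 met the same distance, its highest WT skin array (5.46) lying more than 1 unit below the lowest other array (6.68), but its listed WT skin signal matched the table. For Rtn4, Laptm4a, AY036118 and Cpxm2 the WT skin mean of the table equalled the WT skin signal in the authors' deposited table within 0.51. Smarca4, Bcam, Tmem14c and Pcbp4 stand only on the list of the bud comparison, so their WT skin values could not be checked in this way, and whether those values stand in their own rows was not tested. Libraries also stood apart. K14-PTHrP replicate 3 correlated best with WT skin replicate 3 (r = 0.987 over probe sets). Its mean r was 0.9844 with WT skin, 0.9825 with PTHrP-/- buds and 0.9818 with WT buds, against 0.9692 with its own group. K14WT replicate 1 and K14-PTHrP replicate 1 correlated best with each other (r = 0.9905), and K14-PTHrP replicate 2 correlated best with K14WT replicate 3 (0.9862). The mean r of K14-PTHrP replicates 1 and 2 was 0.9821 and 0.9827 with K14WT skin, against 0.98 and 0.9742 with their own group. Of the K14-PTHrP arrays, only replicate 3 had a higher mean r with WT skin and the buds than with K14WT skin. Results whose call or count turns on K14-PTHrP replicate 3 are therefore given with and without it.

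All 8 genes parted the 2 wild-type skin sets with no overlap between arrays. Rtn4, Laptm4a and AY036118 lay above WT skin on each K14WT array, and Smarca4, Bcam, Tmem14c, Pcbp4 and Cpxm2 lay below it. Over all kept probe sets 9.60% lay above and 21.4% below without overlap (9.19% and 21.1% without the 122 rows), and the median difference was -0.05. The members were chosen for this difference, so nothing is read from their count. Ranked by size among 11573 kept probe sets outside the 122 rows, the members stood between place 2, held by Rtn4, and place 33, held by Cpxm2. The group that carried the difference was not the same for the 8 genes, as the next paragraphs set out.

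**Figure D1:**
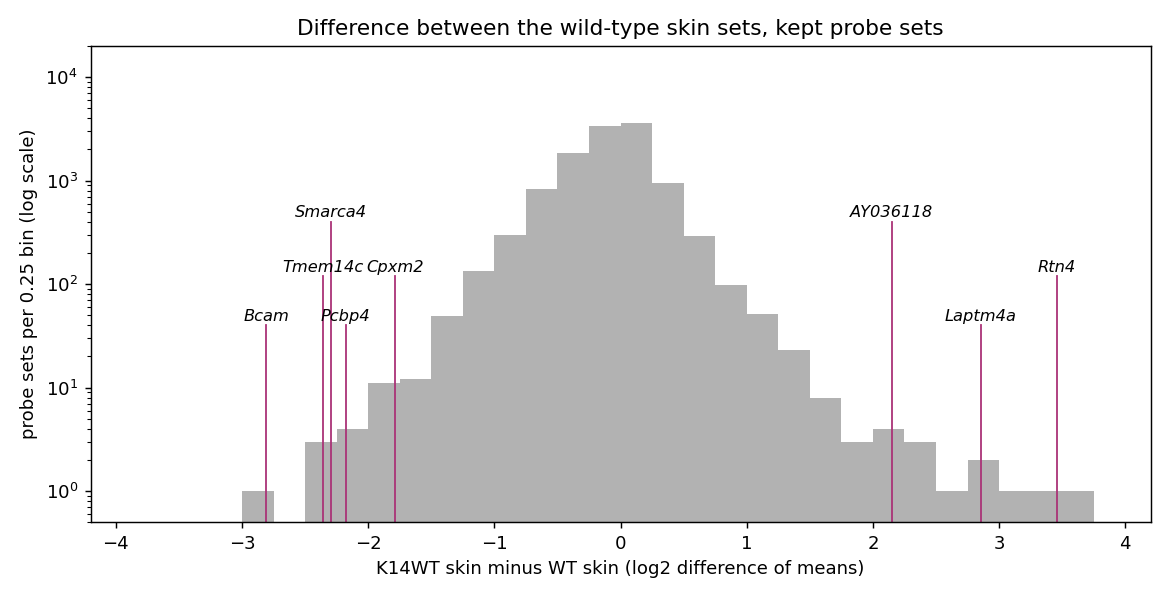
Histogram of the difference K14WT skin minus WT skin (x axis, log2 difference of means, 3 arrays each) over the 11573 kept probe sets outside the 122 rows. The y axis counts probe sets per bin of 0.25 on a log scale, and the vertical lines mark the 8 genes, from -2.81 for Bcam to 3.46 for Rtn4.

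Rtn4 and Laptm4a shared a pattern in which WT skin alone lay low. Rtn4 read 8.28, 8.46 and 7.74 in WT buds, 8.02, 8.09 and 7.31 in PTHrP-/- buds, and 5.33, 5.31 and 5.46 in WT skin. It read 9.26, 8.68 and 8.53 in K14WT skin and 9.22, 6.68 and 8.01 in K14-PTHrP skin. All 3 WT skin arrays lay below each of the other 12. The next lowest array, K14-PTHrP replicate 2, lay between WT skin and the rest. The group means fell in the order K14WT skin (8.82 ± 0.39, SD, n = 3), WT buds (8.16 ± 0.37), K14-PTHrP skin (7.97 ± 1.27), PTHrP-/- buds (7.81 ± 0.43) and WT skin (5.37 ± 0.08). WT buds, K14-PTHrP skin and PTHrP-/- buds overlapped, and K14WT skin lay just above WT buds. K14WT skin exceeded WT skin by 3.46 ± 0.47 (SE), which is 11.0-fold.

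Laptm4a read 9.77, 9.92 and 8.48 in WT buds, 9.45, 9.62 and 8.13 in PTHrP-/- buds, and 6.72, 7.68 and 7.07 in WT skin. In K14WT skin it read 10.75, 9.68 and 9.62, and in K14-PTHrP skin 10.55, 7.82 and 9.16. WT skin was again below every other array, but its highest array nearly reached K14-PTHrP replicate 2. The means were 10.01 ± 0.64 (SD, n = 3) in K14WT skin, 9.39 ± 0.79 in WT buds, 9.18 ± 1.37 in K14-PTHrP skin, 9.07 ± 0.82 in PTHrP-/- buds and 7.16 ± 0.49 in WT skin, and neighbours other than the last pair overlapped. The difference between the wild-type skin sets was 2.86 ± 0.63 (SE), or 7.24-fold. Over the 15 arrays Rtn4 and Laptm4a correlated at r = 0.957, and at 0.958 without K14-PTHrP replicate 3, a description over arrays that fall into groups. Both were chosen for a wide difference between the wild-type skin sets, whose arrays are among the 15. Part of this r was thus fixed by that choice, as it was for each r between members given below. In both genes replicate 3 was the lowest of each bud group, and K14-PTHrP replicate 1 the highest of its group.

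Among all kept probe sets, 0.727% had WT skin below all 12 other arrays, and 0.225% did so outside the 122 rows. Rtn4 and Laptm4a were the only members with any single group apart from the rest, 2 of 8, where 9.60% of all kept probe sets had such a group. Without WT skin replicate 3 the count of such members rose from 2 to 4, adding AY036118 (WT skin below) and Cpxm2 (K14-PTHrP skin above). Without K14WT replicate 1 it was 5, with K14WT skin apart for AY036118, Pcbp4 and Bcam. Without K14-PTHrP replicate 3 it was 3, with WT skin then below all other arrays for AY036118 too. In the authors' deposited table, Rtn4 stands at a signal of 292 in WT buds and 41 in WT skin and Laptm4a at 733 and 148, fold changes of -7.07 and -4.94. The WT skin value of both genes therefore puts it on the authors' list of transcripts lower in skin than in buds, a direction that K14WT skin did not share.

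For Rtn4 and Laptm4a the promoter windows around their annotated starts are shown (RefSeq, build GRCm38.p6). Of the 8 genes, 7 matched the table of windows, which has 3 windows for Rtn4, of which the first by position is printed. The Rtn4 window lies at chr11:29692648-29692947 and the Laptm4a window at chr12:8921057-8921356, both 300 bases on the plus strand. Capitals mark matches, on either strand, to a CCAAT box (CCAAT or ATTGG), a GC box (GGGCGG or CCGCCC) or a TATA box (TATAAA or TTTATA).
Rtn4: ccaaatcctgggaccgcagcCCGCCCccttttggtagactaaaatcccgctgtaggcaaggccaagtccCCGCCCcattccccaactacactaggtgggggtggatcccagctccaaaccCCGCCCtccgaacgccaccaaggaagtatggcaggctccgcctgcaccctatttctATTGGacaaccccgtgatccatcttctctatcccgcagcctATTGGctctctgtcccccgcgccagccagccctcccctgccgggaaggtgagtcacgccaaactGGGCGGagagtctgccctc
Laptm4a: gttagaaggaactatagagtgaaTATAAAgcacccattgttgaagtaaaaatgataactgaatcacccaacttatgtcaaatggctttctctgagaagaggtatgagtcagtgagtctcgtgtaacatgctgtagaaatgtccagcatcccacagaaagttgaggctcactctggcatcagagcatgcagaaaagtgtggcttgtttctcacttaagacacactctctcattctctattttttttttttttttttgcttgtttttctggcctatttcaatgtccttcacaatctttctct
The Rtn4 window held 2 CCAAT boxes and 4 GC boxes and no TATA box match, and the Laptm4a window held 1 TATA box match only, so the windows shared none of the 3 motifs. Of 32851 windows in the table, 37.4% hold a CCAAT box, 35.7% a GC box and 13.6% a TATA box. A match describes letters and is not a binding site.

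**Figure D2:**
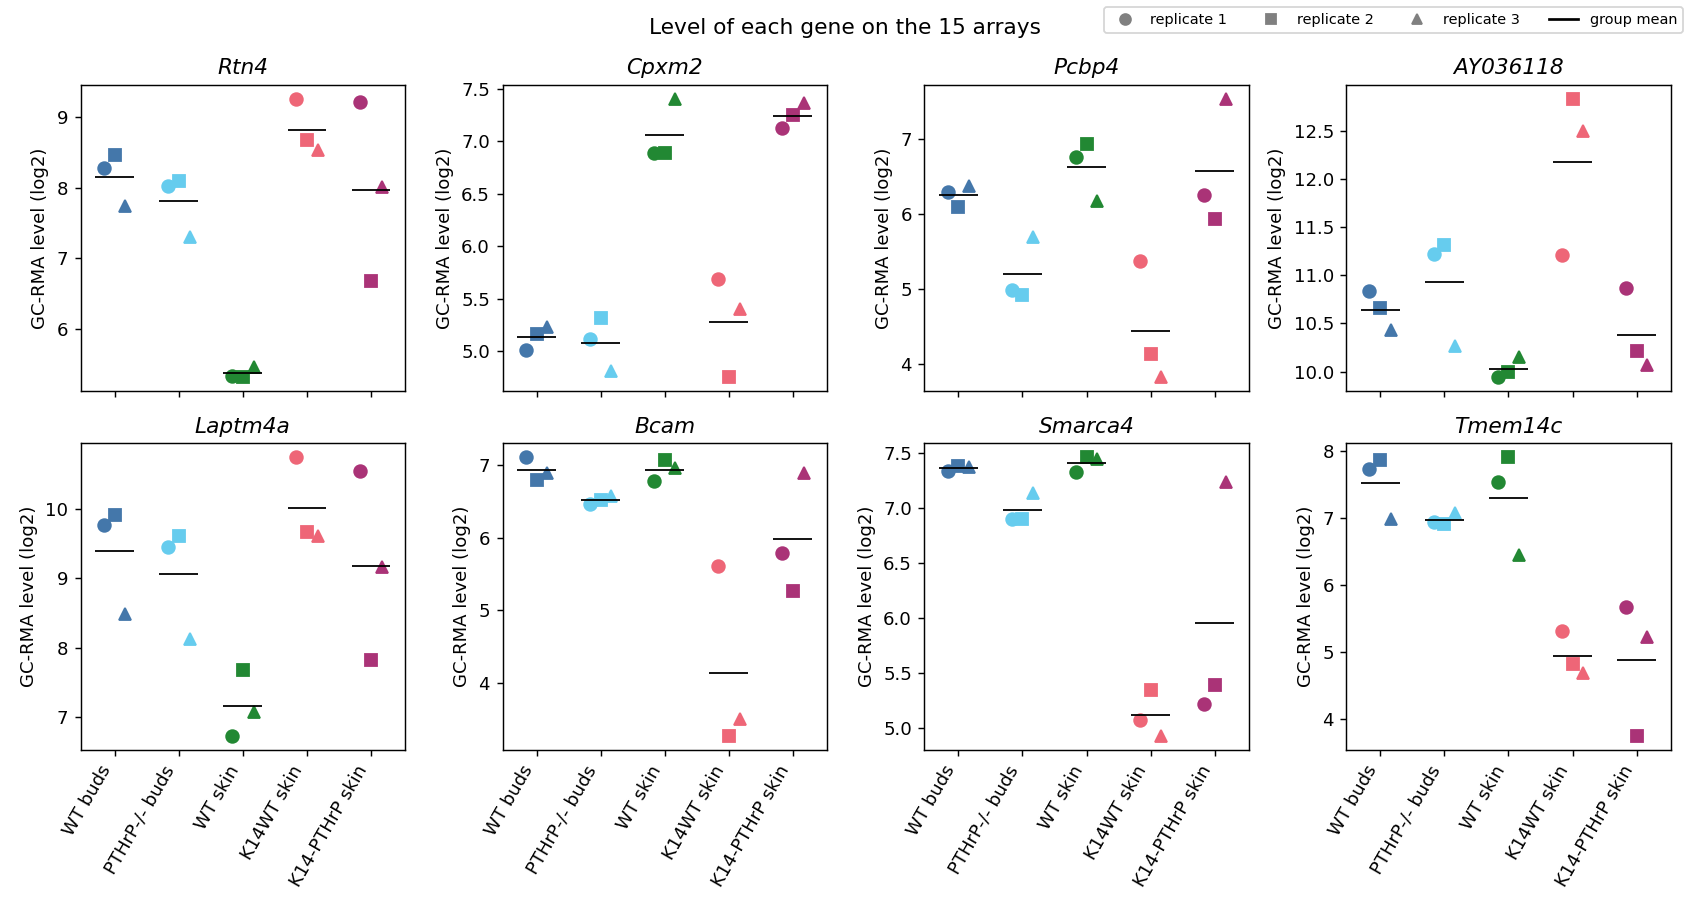
GC-RMA level (y axis, log2) of each of the 8 genes on the 15 arrays, by group (x axis), with symbols for replicates 1 to 3 and a line at the group mean. WT skin alone lies low for Rtn4 (5.31 to 5.46) and Laptm4a (6.72 to 7.68), both K14 groups lie low for Tmem14c, and K14-PTHrP replicate 3 lies with the WT arrays for Smarca4 (7.24) and Bcam (6.90).

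AY036118 was high in K14WT skin. It read 10.83, 10.66 and 10.43 in WT buds, 11.22, 11.31 and 10.26 in PTHrP-/- buds, and 9.94, 9.995 and 10.15 in WT skin. In K14WT skin it read 11.21, 12.83 and 12.49, and in K14-PTHrP skin 10.86, 10.21 and 10.07. K14WT replicates 2 and 3 were the highest arrays, while replicate 1 lay within the range of the PTHrP-/- buds. In the order of means, K14WT skin (12.18 ± 0.86, SD, n = 3) and PTHrP-/- buds (10.93 ± 0.58) overlapped, as did K14-PTHrP skin (10.38 ± 0.42) and WT skin (10.03 ± 0.11). K14WT skin exceeded WT skin by 2.15 ± 0.37 (SE), or 4.44-fold, and K14-PTHrP skin lay below K14WT skin (difference -1.80 ± 0.37). The authors' deposited table has AY036118 at 1606 in WT buds and 1046 in WT skin, a fold change of -1.54.

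The array's control probe set for the middle of 18S ribosomal RNA moved with these 3 genes. It read 9.10, 8.97 and 8.62 in WT buds, 9.22, 9.74 and 9.72 in PTHrP-/- buds, and 6.90, 7.31 and 7.63 in WT skin. It read 9.27, 10.77 and 10.91 in K14WT skin and 10.78, 7.50 and 8.32 in K14-PTHrP skin. WT skin and K14-PTHrP replicate 2 formed the lowest arrays, and K14-PTHrP replicate 1 and K14WT replicates 2 and 3 the highest. Over the 15 arrays it correlated at r = 0.827 with Rtn4, 0.808 with AY036118 and 0.768 with Laptm4a, the highest of the 3 probe sets for 18S, and with the other 5 genes between -0.704 (Pcbp4) and -0.298 (Tmem14c). The probe set for the 5' part of 18S read 7.44 to 8.02 on the WT skin arrays against 10.18 to 10.42 on the K14WT arrays, and that for the 3' part 8.02 to 8.08 against 9.17 to 10.35. The 5' and 3' probe sets correlated less with these genes, at 0.749 and 0.678 with Rtn4, 0.472 and 0.602 with AY036118 and 0.678 and 0.580 with Laptm4a. The members were chosen for a wide difference between the wild-type skin sets, which the 18S probe sets also part. Part of each r with 18S was thus fixed by that choice. Within K14WT skin, Rtn4 and Laptm4a were highest on replicate 1, where the middle probe set was lowest, while AY036118 was lowest there. The part of ribosomal RNA in the differences of Rtn4, Laptm4a and AY036118 was not tested.

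**Figure D3:**
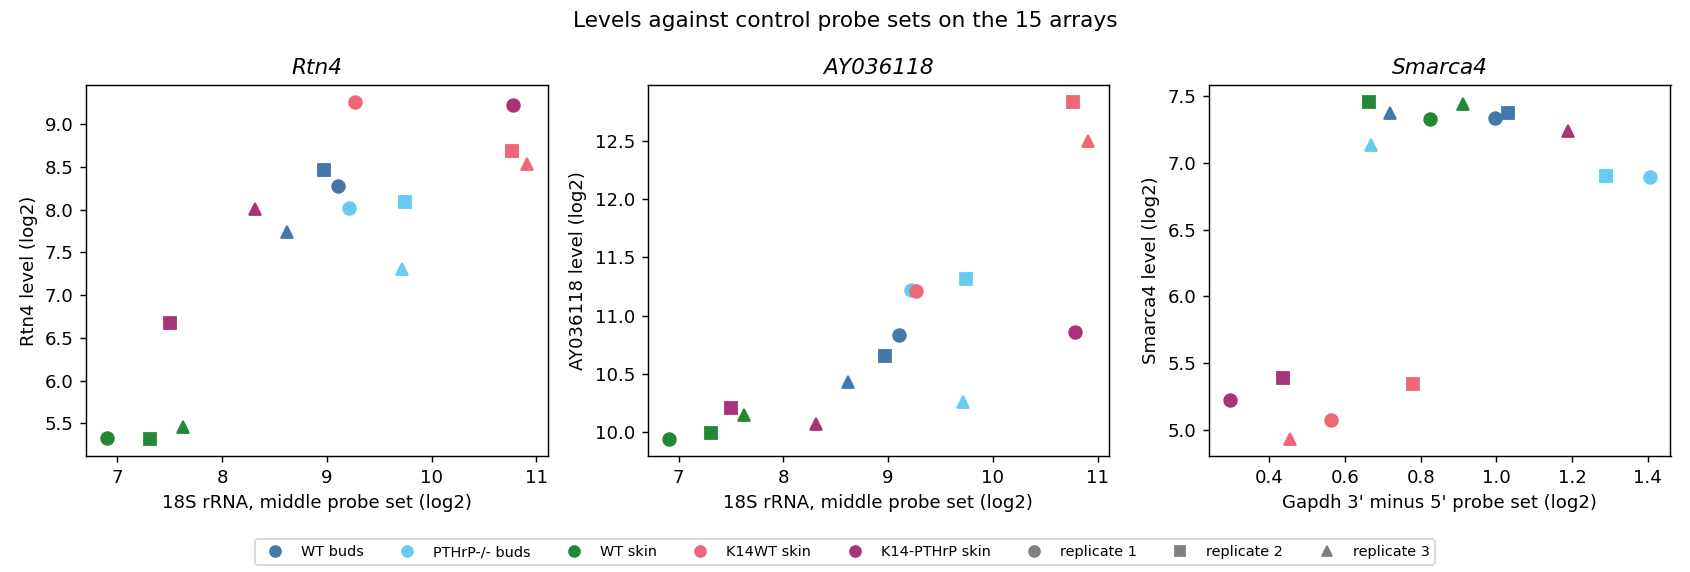
Levels of Rtn4 and AY036118 (y axes, log2) against the 18S ribosomal RNA middle probe set (x axes, log2), and of Smarca4 against the Gapdh 3' minus 5' probe set difference (x axis, log2), each point 1 of the 15 arrays. WT skin lies at the lower left of the first panels (18S 6.90 to 7.63), and in the last panel the 5 arrays with Smarca4 below 5.4 have Gapdh differences of 0.30 to 0.78.

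Smarca4 split the 15 arrays into a high set and a low set. It read 7.34, 7.38 and 7.38 in WT buds, 6.90, 6.90 and 7.14 in PTHrP-/- buds, and 7.33, 7.46 and 7.44 in WT skin. In K14WT skin it read 5.07, 5.34 and 4.93, and in K14-PTHrP skin 5.22, 5.39 and 7.24. The 3 K14WT arrays and K14-PTHrP replicates 1 and 2 lay below the other 10 arrays, and K14-PTHrP replicate 3 lay with WT skin and the buds. Means were 7.41 ± 0.07 (SD, n = 3) in WT skin, 7.36 ± 0.02 in WT buds, 6.98 ± 0.14 in PTHrP-/- buds, 5.95 ± 1.12 in K14-PTHrP skin and 5.11 ± 0.21 in K14WT skin. WT skin overlapped WT buds, and K14-PTHrP skin overlapped both of its neighbours. K14WT skin lay 4.91-fold below WT skin (difference -2.30 ± 0.37, SE).

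Bcam followed the same split with a wider spread. It read 7.11, 6.80 and 6.89 in WT buds, 6.46, 6.52 and 6.58 in PTHrP-/- buds, and 6.79, 7.07 and 6.96 in WT skin. It read 5.61, 3.27 and 3.51 in K14WT skin and 5.78, 5.26 and 6.90 in K14-PTHrP skin. K14WT replicates 2 and 3 lay below the medians of their arrays, so the size of a difference from K14WT skin is not exact. The means of WT skin (6.94 ± 0.14, SD, n = 3) and WT buds (6.93 ± 0.16) differed by less than their spread, PTHrP-/- buds were at 6.52 ± 0.06, and K14-PTHrP skin (5.98 ± 0.83) overlapped K14WT skin (4.13 ± 1.29). The difference between the wild-type skin sets was -2.81 ± 0.50 (SE), 7.01-fold lower in K14WT skin. It was -3.55 without K14WT replicate 1 and -1.96 with log2(value + 16). Bcam and Smarca4 correlated at r = 0.853 over the 15 arrays. They were the 2 members for which the 5 K14 arrays other than K14-PTHrP replicate 3 lay below the remaining 10, as did 5.94% of all kept probe sets. This split was chosen after the values were seen.

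Tmem14c was low in both K14 groups, replicate 3 included. It read 7.73, 7.86 and 6.98 in WT buds, 6.94, 6.91 and 7.07 in PTHrP-/- buds, and 7.54, 7.90 and 6.45 in WT skin. It read 5.31, 4.83 and 4.69 in K14WT skin and 5.67, 3.75 and 5.22 in K14-PTHrP skin. All 6 K14 arrays lay below the other 9, a split found in 1.22% of all kept probe sets and in no other member. K14-PTHrP replicate 2 lay below its array's median. The means of WT buds (7.52 ± 0.48, SD, n = 3), WT skin (7.30 ± 0.75) and PTHrP-/- buds (6.97 ± 0.09) overlapped as neighbours, and so did those of K14WT skin (4.94 ± 0.33) and K14-PTHrP skin (4.88 ± 1.0). The difference between the wild-type skin sets was -2.36 ± 0.45 (SE), 5.12-fold lower in K14WT skin. Tmem14c correlated with Smarca4 at r = 0.814, and at 0.895 without K14-PTHrP replicate 3.

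The control probe sets of Gapdh, whose 3' minus 5' difference grows as RNA degrades or is labelled incompletely, also differed between arrays. The difference was 0.66 to 0.91 log2 units in WT skin, between 0.46 and 0.78 in K14WT skin, 0.30 and 0.44 in K14-PTHrP replicates 1 and 2, and 1.19 in K14-PTHrP replicate 3. WT buds lay at 0.72 to 1.03 and PTHrP-/- buds at 0.67 to 1.41. The same difference for beta-actin was 1.27 to 1.61 in WT skin, between 1.12 and 1.34 in K14WT skin and between 1.08 and 1.79 in K14-PTHrP skin. The array on which Smarca4 and Bcam read high within the K14 arrays was thus also the one with the highest Gapdh and beta-actin differences among them. The part of RNA quality in these levels was not tested.

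Pcbp4 and Cpxm2 lay low in K14WT skin and near WT skin in K14-PTHrP skin. Pcbp4 read 6.29, 6.09 and 6.38 in WT buds, 4.99, 4.93 and 5.70 in PTHrP-/- buds, and 6.76, 6.93 and 6.18 in WT skin. It read 5.37, 4.13 and 3.83 in K14WT skin and 6.26, 5.93 and 7.54 in K14-PTHrP skin. K14WT replicates 2 and 3 were the lowest arrays, replicate 3 being below its array's median, and replicate 1 lay within the range of the PTHrP-/- buds. The means of WT skin (6.62 ± 0.40, SD, n = 3), K14-PTHrP skin (6.58 ± 0.85) and WT buds (6.25 ± 0.15) overlapped, above PTHrP-/- buds (5.20 ± 0.43) and K14WT skin (4.45 ± 0.82), which overlapped each other. K14WT skin was at -2.18 ± 0.43 (SE) from WT skin, 4.52-fold lower (-1.57 with log2(value + 16)), and K14-PTHrP skin exceeded K14WT skin by 2.13 ± 0.43. Pcbp4 ran opposite to AY036118 over the 15 arrays (r = -0.896).

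Cpxm2 read 5.01, 5.16 and 5.23 in WT buds, 5.11, 5.31 and 4.81 in PTHrP-/- buds, and 6.89, 6.89 and 7.41 in WT skin. In K14WT skin it read 5.69, 4.75 and 5.40, and in K14-PTHrP skin 7.13, 7.25 and 7.37. WT skin and K14-PTHrP skin formed a high set of 6 arrays, and K14WT skin lay low with the buds. The means of K14-PTHrP skin (7.25 ± 0.12, SD, n = 3) and WT skin (7.06 ± 0.30) overlapped, as did those of K14WT skin (5.28 ± 0.48), WT buds (5.13 ± 0.11) and PTHrP-/- buds (5.08 ± 0.25). K14WT skin was at -1.78 ± 0.22 (SE) from WT skin, 3.44-fold lower. The authors' deposited table lists Cpxm2 at 35 in WT buds and 136 in WT skin, a fold change of 3.85.

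**Figure D4:**
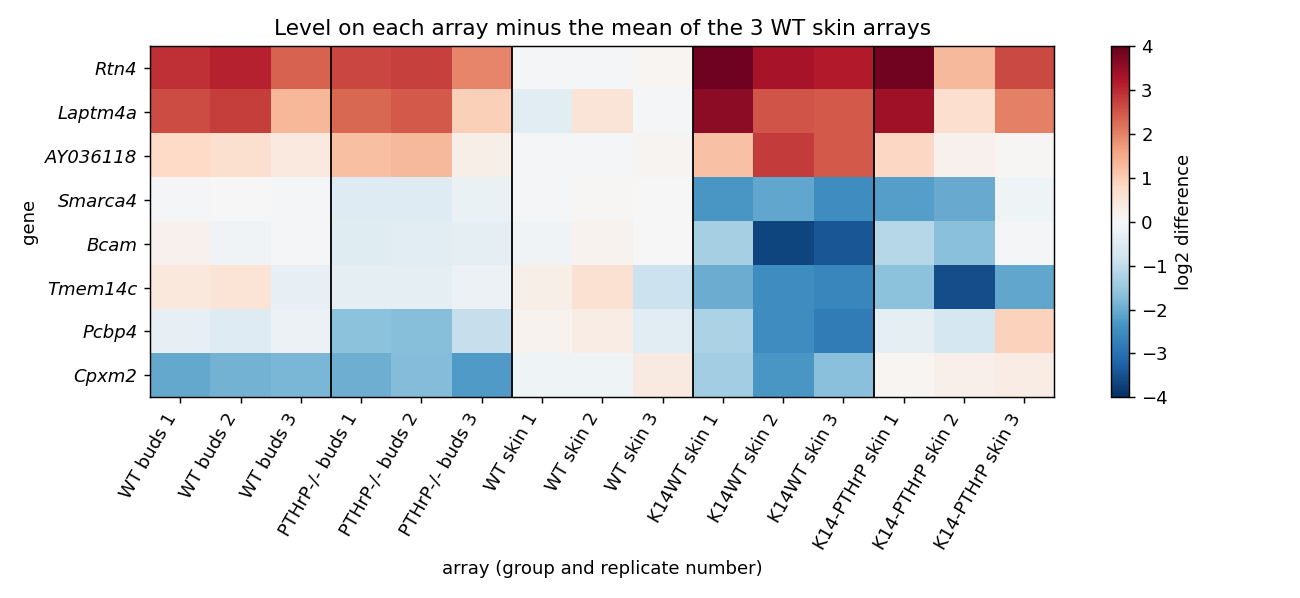
Level of each gene (rows) on each array (columns, by group and replicate) minus the mean of the 3 WT skin arrays, as a log2 difference from -4 (blue) to 4 (red). K14WT skin departs from WT skin in all 8 rows, K14-PTHrP skin follows it for Tmem14c but not for Cpxm2, and the bud arrays share the reds of Rtn4 and Laptm4a.

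The groups that the members' choice did not use were compared with limma, fitted over all 11692 kept probe sets with Benjamini-Hochberg adjustment. The fit took its spread from all 5 groups, so the WT skin and K14WT arrays entered the errors of these tests. The naming of a probe set rests on the authors' lists, which were chosen on the bud arrays among others, so these tests are not fully independent of how a gene came to be named. The first asked whether the genes differ between PTHrP-/- and WT buds. No member passed, and 0.0342% of all kept probe sets did (4 probe sets). At an unadjusted p under 0.05, limma gave 1 member, Pcbp4, and 1647 of all kept probe sets. Pcbp4 was at -1.05 ± 0.43 (SE, n = 3 per group) in PTHrP-/- buds (limma, adjusted p = 0.317, between 0.0621 and 0.566 over its alternatives), a 2.07-fold lower level.

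Without overlap between arrays, 3 members, Pcbp4, Bcam and Smarca4, lay lower in PTHrP-/- buds, beside 18% of all kept probe sets, and 0 lay higher, beside 14.2%. Smarca4 was at -0.39 ± 0.37 (limma, adjusted p = 0.621) and Bcam at -0.41 ± 0.50 (adjusted p = 0.700), differences smaller or little larger than an SE that draws on all 5 groups. Tmem14c was at -0.55 ± 0.45 (limma, adjusted p = 0.555), and the other members lay between -0.35 (Rtn4) and 0.29 (AY036118). In the authors' deposited table Pcbp4 goes from 77 in WT buds to 38 in PTHrP-/- buds (fold change -2.02), Tmem14c from 190 to 126 (-1.51), Bcam from 123 to 92 (-1.33) and Smarca4 from 165 to 127 (-1.3). All 4 stand on the authors' list of transcripts lower in PTHrP-/- buds, which was chosen on these same arrays.

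The other test set K14-PTHrP skin against WT buds. These groups differ in both tissue and genotype, which cannot be told apart in this comparison. Cpxm2 was higher in K14-PTHrP skin by 2.11 ± 0.22 (SE, n = 3 per group), or 4.33-fold (limma, adjusted p = 0.000188, at most 0.00402 over its alternatives). It was the only member called higher, beside 0.924% of all kept probe sets. Tmem14c was 6.24-fold lower (difference -2.64 ± 0.45, limma, adjusted p = 0.0071), the only member called lower, beside 3.37%. The call of Tmem14c was lost when only the 2 groups compared were fitted (adjusted p = 0.0963, the highest over its alternatives, from 0.00353). Each WT bud array lay below each K14-PTHrP array for Cpxm2 and above each for Tmem14c. Against WT buds, Cpxm2 was at 1.93 in WT skin and 0.14 in K14WT skin, and Tmem14c at -0.22 and -2.58, as a description. Markers of other cells were also called between K14-PTHrP skin and WT buds. Of 4 leukocyte markers 2 were higher in K14-PTHrP skin, C1qa (0.82, limma, adjusted p = 0.0185) and C1qb (0.78, adjusted p = 0.0264), and of 7 mammary bud markers 4 were lower, among them Pthlh (-1.89, adjusted p = 0.00121) and Krt18 (-1.77, adjusted p = 0.000188). Of 5 endothelial markers Esam was higher (1.07, adjusted p = 0.00295) and Ramp2 lower (-2.29, adjusted p = 0.00697). The basal keratinocyte marker Krt15 (-0.71, limma, adjusted p = 0.016) and the epidermal marker Krt4 (-0.97, adjusted p = 0.00414) were lower. No marker of fibroblasts, skeletal muscle, red cells or cartilage was called. The part of these cell types in the differences of Cpxm2 and Tmem14c was not tested.

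Smarca4 narrowly missed the threshold in that comparison, at -1.42 ± 0.37 (limma, adjusted p = 0.05002). It passed without K14-PTHrP replicate 3 (difference -2.06, adjusted p = 1.947e-06) and reached 0.252 when only the 2 groups compared were fitted, its highest value. Leaving out that array also moved the calls over all kept probe sets from 108 higher and 394 lower to 506 and 1480. Bcam was at -0.95 ± 0.50 (adjusted p = 0.292, between 0.0697 and 0.647 over its alternatives). Rtn4, Laptm4a, AY036118 and Pcbp4 were between -0.26 and 0.32 with adjusted p of 0.740 or more in the limma fit. The means of Rtn4 and Laptm4a rest on K14-PTHrP arrays that lie on opposite sides of WT buds: without replicate 1 they were at -0.82 and -0.90 (limma, adjusted p = 0.284 and 0.472), and without replicate 2 at 0.46 and 0.47 (adjusted p = 0.564 and 0.775). Pcbp4 turned from 0.32 to -0.16 without replicate 3 (adjusted p = 0.855).

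The remaining comparisons share WT skin or K14WT arrays with the one that chose the members and are described only. Between K14-PTHrP and K14WT skin, Cpxm2 and Pcbp4 lay above without overlap (4.74% of all kept probe sets) and AY036118 below (6.60%). Cpxm2 was at 1.97 ± 0.22 (SE) and 3.92-fold higher in K14-PTHrP skin. Without K14-PTHrP replicate 1 the members without overlap were 6 in place of 3, with Rtn4 and Laptm4a then below and Smarca4 above. Such a count can only stay or rise when an array is left out, and the shares given are for all arrays. Bcam was at 1.85 ± 0.50, Smarca4 at 0.84 ± 0.37 and Tmem14c at -0.06 ± 0.45, each with overlapping arrays.

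Against WT skin, K14-PTHrP skin lay above without overlap for Rtn4 (2.60 ± 0.47, SE) and Laptm4a (2.02 ± 0.63), beside 3.33% of all kept probe sets. It lay below for Smarca4 (-1.46 ± 0.37) and Tmem14c (-2.42 ± 0.45), beside 11.4%. Without K14-PTHrP replicate 3 the members without overlap were 6 in place of 4, with Bcam then below and AY036118 above, and without WT skin replicate 3 they were also 6, with Cpxm2 and AY036118 above. Here too the count could not fall with fewer arrays, and the shares given are for all arrays. Cpxm2 (0.19 ± 0.22) and Pcbp4 (-0.05 ± 0.43) differed by less than an SE over all arrays. WT skin lay above WT buds without overlap for Cpxm2 (1.93 ± 0.22), beside 9.40%, and below for Rtn4 (-2.79 ± 0.47), Laptm4a (-2.23 ± 0.63) and AY036118 (-0.61 ± 0.37), beside 9.39%. Smarca4 (0.04 ± 0.37) and Bcam (0.01 ± 0.50) hardly differed between these 2 groups, although each differed by more than 2 log2 units between K14WT skin and WT buds (-2.25 and -2.80).

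The named genes most like each member were those with the highest Pearson r over the 15 arrays, a measure that group levels and the K14 arrays dominate. Tmed9, a cargo receptor of the early secretory pathway, was among those most like both Rtn4 (r = 0.878) and Laptm4a (0.899). On the WT skin arrays Tmed9 read 8.05 to 8.17, against 8.66 to 9.03 on the K14WT arrays. Smarca4 was nearest to the zinc finger transcription factor Bcl11b (0.978) and to Smarcd2 (0.947), another subunit of the SWI/SNF complexes. On the WT skin arrays Bcl11b read 8.61 to 8.998, against 7.20 to 7.46 on the K14WT arrays.

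Bcam ran nearest to the RNA ligase subunit Rtcb (r = 0.940) and to the chaperone adaptor Sgta (0.935), and Tmem14c to Ramp2 (0.910), a receptor-modifying protein of endothelium, and Mocs2 (0.909), an enzyme of molybdenum cofactor synthesis. Pcbp4 was nearest to the annexin Anxa6 (0.945) and the nucleolar protein Nop53 (0.923). AY036118 was nearest to the RNA-binding protein Hnrnpab (0.834) and to Fin15 (0.803). Cpxm2 was nearest to Fcrls (0.871) and to the complement gene C1qb (0.867), both expressed by macrophages. Of these, C1qb read 7.83 to 8.79 on the WT skin arrays against 7.63 to 8.02 on the K14WT arrays, an overlap that Cpxm2 did not show.

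Other named genes also parted the wild-type skin sets by wide gaps. Above WT skin, wide gaps between the nearest arrays included those of the dynein light chain Dynlt3 (1.501) and the stress-response gene Ddit4 (1.25). Below it, the widest were those of Ramp2 (1.91, at 1 of its probe sets), the kinase Taok1 (1.52) and the phosphatase subunit Ppp2r5d (1.49). The gaps of the 8 members ran from 0.805 (Pcbp4) to 3.07 (Rtn4), so the members were not simply the widest. Dynlt3 read 8.14, 8.32 and 5.46 and Ramp2 7.08, 6.66 and 8.63 in K14-PTHrP skin. Their replicate 3 lay on the side of WT skin (6.43 to 6.62 for Dynlt3, 9.22 to 9.33 for Ramp2), as did that of Ppp2r5d (7.61, WT skin 7.19 to 7.54). For the other genes named here it did not. Taok1 replicate 3 (6.315) lay nearer K14WT skin (5.39 to 6.07) than WT skin (7.60 to 7.68). Ddit4 replicate 3 (8.44) was the K14-PTHrP array nearest K14WT skin (8.65 to 9.05).

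Related genes were counted in lists, of which only members on the authors' lists have a name. In the SWI/SNF list, 3 of 23 genes were named and kept, and all 3 lay below WT skin in K14WT skin without overlap: Smarcd3 (-1.11), Smarcd2 (-0.69) and Arid2 (-0.28). Against WT buds, only Smarcd2 of these was called lower in K14-PTHrP skin (-0.57, limma, adjusted p = 0.0465). Of 20 genes that shape the endoplasmic reticulum, 5 were named and kept, with a median of -0.27, and 3 lay below: Ckap4 (-0.91), Reep3 (-0.37) and Arl6ip1 (-0.27). None of the 5 lay above WT skin, which 9.60% of all kept probe sets did, with 21.4% below. Of 22 lysosomal membrane and sorting genes, 9 were named and kept with a median of -0.24, 4 lay below, among them the ubiquitin ligase Nedd4 (-1.07), and 0 lay above. Counts this small do not set these lists apart from those shares.

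Of 22 basal adhesion and laminin genes, 4 were named and kept with a median of -0.05, and 1, the hemidesmosomal collagen Col17a1 (-0.17), lay below. Lama5, whose laminin chain Bcam binds, was at 0.60 with overlapping arrays. Of 21 genes of heme synthesis and mitochondrial transport, 4 were named and kept with a median of 0.02, and Slc25a39, a mitochondrial carrier, lay below (-0.67). Of 18 poly(C) and KH-domain RNA-binding genes, 3 were named and kept with a median of -0.19, and Pcbp2 (-0.19) lay below. Of 15 M14 carboxypeptidases only Cpd was named and kept. It lay below WT skin in K14WT skin (-0.92) and was lower in K14-PTHrP skin than in WT buds (-1.5, limma, adjusted p = 0.0256), where Cpxm2 was higher. In PTHrP-/- buds no gene of any of these lists was called.

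Markers of cell types, some of which (Col17a1, Laptm5, Alas2) are also in the lists above, were set beside the wild-type skin sets as well, and their part in the members' differences was not tested. Basal keratinocyte markers (3 of 7 named and kept) and dermal fibroblast markers (7 of 11) were present in all 3 skin groups. That presence does not tell skin from buds, since no bud sums stand beside it. Against WT buds, the basal marker Krt15 was lower in K14-PTHrP skin (-0.71, limma, adjusted p = 0.016), and 0 fibroblast markers were called. The basal keratinocyte markers Krt14, Krt15 and Col17a1 summed to linear signals of 5469 to 6472 in WT skin, between 3750 and 5076 in K14WT skin and between 4353 and 6079 in K14-PTHrP skin, and all 3 genes lay below WT skin in K14WT skin. The fibroblast markers summed to 27375 to 34710, 32106 to 34154 and 20683 to 30578 in that order. Of 14 skeletal muscle markers (of 19), 8 lay above WT skin in K14WT skin and 0 below, with sums of 9609 to 15617 in WT skin, between 17660 and 23798 in K14WT skin and between 12019 and 20500 in K14-PTHrP skin. The widest of these muscle differences were those of Car3 (1.31), Myl1 (1.16) and Ckm (0.89).

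Endothelial and leukocyte sums also lay lower in K14WT skin than in WT skin without overlap. Of 5 endothelial markers (of 10), with a median of -0.08, only Ramp2 (-2.04) lay below, while Esam (-0.12) and Cldn5 (-0.08) overlapped. The endothelial sums were 1248 to 1474 in WT skin, between 700 and 960 in K14WT skin and between 802 and 1248 in K14-PTHrP skin. Of 4 leukocyte markers (of 10), 2 lay below, among them C1qa (-0.46), with sums of 888 to 995, 684 to 820 and 857 to 1103. Of 4 erythroid markers (of 10), 0 lay apart, with sums of 23063 to 27523, 25079 to 32048 and 21764 to 30597. Of 5 markers of the upper epidermal layers (of 11), 1, Sfn (-0.82), lay below, with sums of 15988 to 18650, 12385 to 21928 and 12244 to 20120. Of 7 mammary bud markers (of 9), 3 lay above, among them Elf5 (0.85) and Pthlh (0.61), with sums of 1561 to 2320, 1345 to 2044 and 1353 to 1651. The 1 cartilage marker, Col9a1, overlapped, and no marker of nerve was named and kept.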

How the data were processed

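Expression was measured on 15 Affymetrix arrays, 3 in each of 5 groups taken from the sample labels. The authors deposited log2 levels for 22690 probe sets, 64 of them controls, made with GC-RMA per the file headers. Besides GCRMA, the submitters' processing notes list MAS5 and affy and give no versions. The authors' deposited lists give mean signals, linear intensity values rounded to whole numbers, and a signed fold change, treated here as a score that is negative for a fall. Per the file headers they were chosen with Cyber-T. No genome build is named in these sources, so no probe set is placed on the genome.

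Controls were left out of fits. Differences, standard errors and tests came from limma 3.58.1 in R 4.3.3, with lmFit on 5 group means over all 15 arrays and eBayes (residual df 10, prior df 3.088). Tests were two-sided with Benjamini-Hochberg adjustment over 11692 kept probe sets and a threshold of 0.05. The fit was tested on simulated data. The SE draws on all groups. The number of arrays limits the precision. Tables and plots were made in Python 3.11.15 (pandas 2.3.3, matplotlib 3.10.9).

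The members and lists were chosen with earlier results of these data known. The genes named are the 8 members, the 2 most correlated named genes of each, the 3 other named genes with the widest gap between the wild-type skin sets in each direction, and up to 3 genes of each list by size of that difference. Some genes that this rule selects are not reported here. Alternatives were another normalization or centring, log2(value + 16), other filters, fewer groups, limma's trend and robust options, a replicate block, leaving out each array and, chosen after seeing the data, leaving out the 122 rows in which WT skin stood far from all other arrays.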

Additional observations from a re-analysis of the deposited data

How the results depend on the processing

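All 8 members parted the wild-type skin sets without overlap under every alternative run, but they were chosen for this difference. Leaving out an array or the rows in which WT skin stood far from all other arrays cannot create overlap, nor can log2(value + 16). Only quantile normalization and centring each array on its median could have created overlap, and all 8 stayed apart under both. No difference between groups reversed its sign where it was called. With log2(value + 16) the difference K14WT minus WT skin moved beyond 1 SD for Rtn4 (to 3.03) and Smarca4 (to -1.88), since that offset shrinks low values. Bcam went to -1.96 and Pcbp4 to -1.57 with it, within 1 SD of their wider spread, and Bcam to -3.55 without K14WT replicate 1. Leaving out arrays took the count of members with a single group apart from 2 to 5 and the count without overlap between K14-PTHrP and K14WT skin from 3 to 6. Neither count can fall when an array is left out. The count of members called between K14-PTHrP skin and WT buds, 2, became 1 when only the 2 groups compared were fitted and 3 without K14-PTHrP replicate 3 or with a filter of at least 12 arrays, where Smarca4 passed (adjusted p = 0.0487). The cause was not tested. Over all kept probe sets, the 108 higher and 394 lower calls of this comparison became 158 and 211 after quantile normalization, 31 and 20 with only the 2 groups, 81 and 252 with no filter, 506 and 1480 without K14-PTHrP replicate 3, and 48 to 107 and 116 to 161 without another array. With only the 2 bud groups, 33 higher and 64 lower probe sets were called in place of 2 and 2, and no member.

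Replicate numbers were not taken as pairs, since in no comparison did every same-numbered pair correlate above 0.1. Deviations of same-numbered arrays correlated at -0.02, -0.05 and 0.26 between the bud groups at -0.16, -0.11 and -0.24 between K14-PTHrP skin and WT buds, and at 0.31, 0.18 and -0.14 between K14-PTHrP and K14WT skin, which was not tested. With the replicate block, 0 members were called between the bud groups and 2 between K14-PTHrP skin and WT buds, with 115 higher and 314 lower over all kept probe sets. Levels below an array's median, near background for Bcam, Pcbp4 and Tmem14c, limit how exactly their differences are known.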
